A study of Mus musculus with 7 samples.

Results

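The 10 heat shock and chaperone genes, *Hspa1a*, *Hspa1b*, *Dnajb1*, *Hsph1*, *Hspa8*, *Hsp90aa1*, *Hsp90ab1*, *Dnaja1*, *Hspe1* and *Hspd1*, were followed in lineage-depleted (lin-) bone marrow cells of *HRP-2* wild type and knockout mice. They were taken by symbol as a check of stress during isolation of the cells, and make up 10 of the 25033 gene symbols listed in the count files. All 10 passed the filter on low counts that left 11265 genes for testing. The RNA came from 3 wild type mice, labelled Hrp2+/+, and 4 knockout mice, labelled Hrp2-/-, of the C57BL/6N-Hdgfrp2<tm1b(KOMP)Wtsi>/Tcp line. The tm1b allele removes HRP-2 in every tissue rather than in blood cells alone, and the labels give neither a treatment nor a sex. The mice were 6 to 8 weeks old. Red blood cells in the marrow of femur and tibia were lysed, and a kit then removed cells carrying markers of mature lineages. The methods name culture and RNA extraction as alternative uses of the isolated cells, and do not say how long the cells were handled before the RNA was taken.

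Heat shock proteins are chaperones that hold and refold other proteins. Under stress, heat shock factor 1 trimerises and binds heat shock elements, runs of the unit nGAAn in alternating orientation, and the inducible genes *Hspa1a*, *Hspa1b*, *Dnajb1* and *Hsph1* rise steeply within minutes. Relatives such as *Hspa8* and *Hsp90ab1* are abundant in unstressed cells, and the *Hspe1* and *Hspd1* products form the folding chamber of mitochondria. In cells taken from tissue these genes, together with immediate-early genes such as *Fos* and *Jun*, are commonly read as a sign of handling.

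The DNA around the starts of *Hspa1a*, *Hspa1b*, *Hsph1* and *Hspe1* is shown because it holds matches to these elements and because *Hspa1a* and *Hspa1b* are near-identical neighbours. Sequences are RefSeq promoter windows on GRCm38.p6, read 5′ to 3′ on the gene's strand, with heat shock elements in capitals. For *Hspa1a* (chr17:34972157-34972406, minus strand) and *Hspa1b* (chr17:34959239-34959488, minus strand) the 250 bases before the start are given, and for *Hsph1* (chr5:149636351-149636380 and chr5:149636287-149636316, minus strand) and *Hspe1* (chr1:55088053-55088082, plus strand) 30 bases around the elements.
Hspa1a: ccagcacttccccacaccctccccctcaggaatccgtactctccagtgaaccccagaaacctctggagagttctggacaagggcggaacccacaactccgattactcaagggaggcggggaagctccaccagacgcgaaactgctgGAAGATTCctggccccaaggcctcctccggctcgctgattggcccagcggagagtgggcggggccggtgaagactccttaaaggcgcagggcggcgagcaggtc
Hspa1b: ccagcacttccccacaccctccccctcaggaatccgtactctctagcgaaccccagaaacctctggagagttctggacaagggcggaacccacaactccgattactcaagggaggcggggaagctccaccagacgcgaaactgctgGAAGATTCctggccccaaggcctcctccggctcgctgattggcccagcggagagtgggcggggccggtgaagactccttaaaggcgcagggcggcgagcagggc
Hsph1, before the RefSeq starts: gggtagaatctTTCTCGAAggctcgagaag
Hsph1, after the RefSeq starts: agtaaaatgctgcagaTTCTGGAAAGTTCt
Hspe1: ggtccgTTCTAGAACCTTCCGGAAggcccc

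The motifs searched were GAANNTTC and TTCNNGAA, called 2-unit elements here, and 3-unit elements, in which GAANNTTC goes on with NNGAA or TTCNNGAA with NNTTC, and which therefore contain the 2-unit ones. Each 2-unit motif reads the same on both strands, and each 3-unit motif is the other's reverse complement, so both strands were covered. The windows reached from 250 bases before to 50 bases after an annotated start, and 7 of the 10 members had 12 of them. *Hspa1a* and *Hspa1b* differed at 3 of the 250 bases shown, and both held GAANNTTC beginning 104 bases before the start. *Hspe1*, a partner of the mitochondrial chaperonin, held 3 overlapping 2-unit elements, the farthest beginning 89 bases before the start. The same run lay in a window of *Hspd1*, which is transcribed away from *Hspe1* on the other strand and shared 285 of 300 window bases with it. *Hsph1* has 2 RefSeq starts, with a 2-unit element beginning 33 or 54 bases before them and a 3-unit element beginning 36 or 15 bases after them. The GENCODE gene begins farther upstream, so that both elements lie inside it. *Dnaja1* held GAANNTTC 124 bases before 1 of its starts, and the 2 windows of *Dnajb1* held no match to these letters. Counted by window, 7 of the members' 12 windows held a 2-unit and 4 a 3-unit element, with the overlapping windows of *Hspe1* and *Hspd1*, and of the 2 starts of *Hsph1*, each counted. Of all 32851 windows of 300 bases, 15.1% held a 2-unit and 0.603% a 3-unit element. A match is a description of letters, and binding was not measured.

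The library kit primed on poly(A) tails, so that each transcript yielded 1 fragment from its 3′ end, and reads were single and 75 bp long. Each held between 3525665 and 5605158 reads on genes. Levels are given in CPM, the reads on a gene scaled to a common library size with edgeR's TMM factors; since a transcript gives 1 fragment whatever its length, CPM was not divided by length. A floor of 3 reads corresponded to between 0.561 and 0.840 CPM, which covers counting error only, and every member lay above it in every mouse. The targeted gene, listed as *Hdgfl2* and encoding HRP-2, stood at 43.7 CPM or more in every wild type mouse and at 0.498 to 2.53 CPM in knockout mice, as the labels state (edgeR adjusted p = 1.38e-07). Between 4.94% and 20.6% of the reads on genes were on *Rn45s*, a precursor of ribosomal RNA. Knockout replicate 3 stood apart in sex-linked genes. The X inactivation transcript *Xist* was at 0.561 CPM there and between 229.0 and 302.8 CPM in the other 6 mice, while Y-linked *Ddx3y* was at 104.5 CPM there and at most 0.777 CPM elsewhere. By these genes knockout replicate 3 was male and the other 6 mice were female, although the labels give no sex. In these bulk samples, fewer cells of a type and less RNA per cell cannot be told apart. The progenitor receptor gene *Kit* was present in every mouse at 85.1 to 122.0 CPM and *Cd34* at 184.9 to 283.6 CPM.

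No member passed the test between genotypes. At an adjusted p under 0.25, the threshold used in the study for genes, edgeR's quasi-likelihood test called 0 of the 10 members, against 0.0178% of all genes tested, which is 2 of 11265. At 0.05 the counts were the same, 0 members and 0.0178% of genes, and every member had an adjusted p of 0.999. At an unadjusted p under 0.05 edgeR called 0 members and 3.63% of all genes. DESeq2 called 0 members and 0.194% of genes at 0.25, and limma-voom 0 members and 0.0266% of genes. Wild type and knockout levels overlapped for all 10 members, while 5.16% of all genes did not overlap. The levels differed between single mice instead. Knockout replicate 3 was the highest of the 7 mice in 9 of 10 members, whereas it was the highest for 15.7% of all genes tested, and that share ran from 11% to 17.6% over the 7 mice. Knockout replicate 1 was the lowest mouse in 5 members, against 15.8% of all genes.

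**Figure D1:**
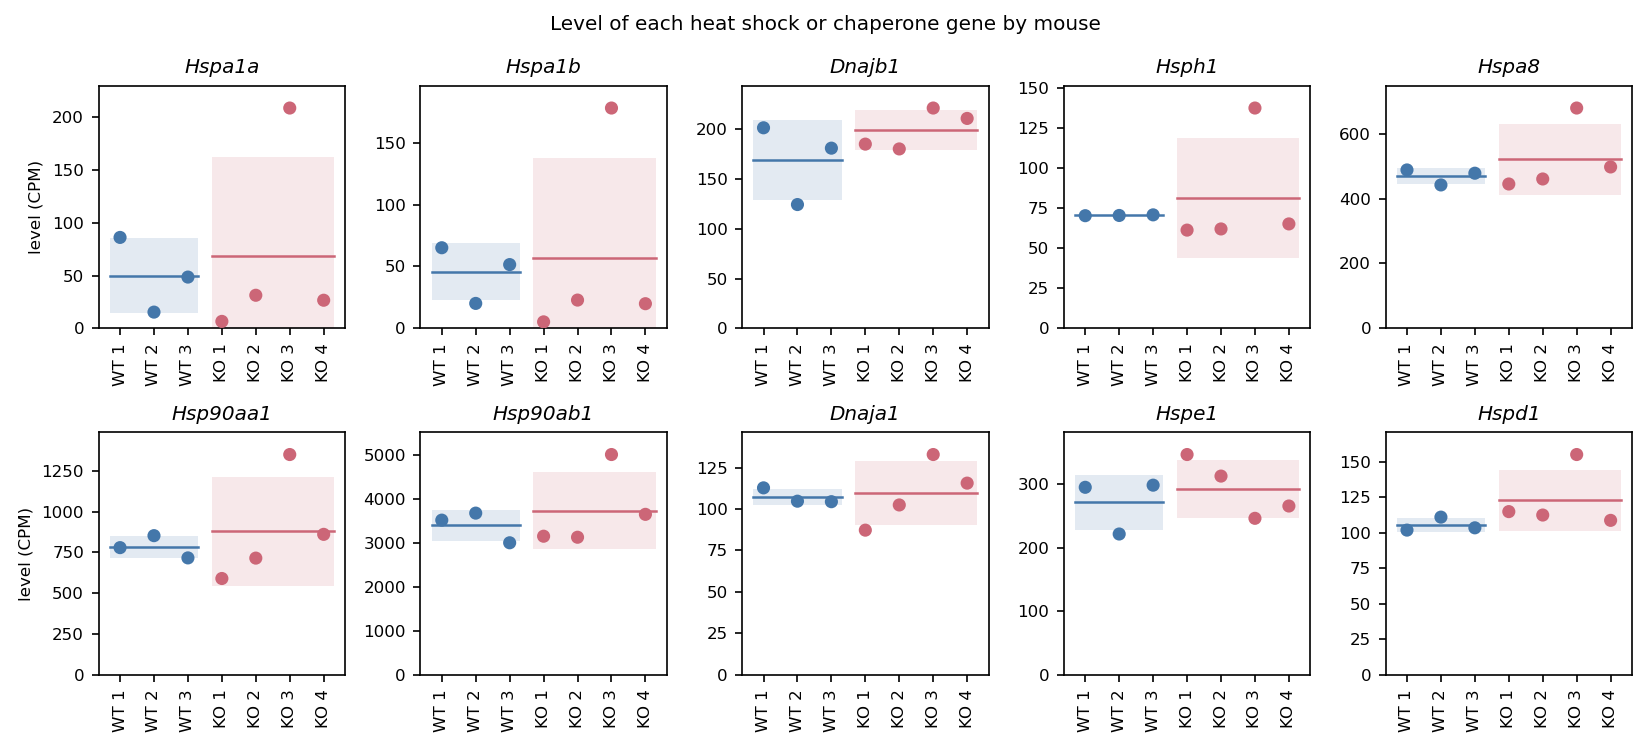
Level of each gene in CPM (vertical axis, from 0) in 3 wild type (WT, blue) and 4 knockout (KO, red) mice; points are mice, lines are genotype means and bands are ± 1 SD, ending at 0 where they would pass below it. Knockout replicate 3 is the highest point in 9 of the 10 panels, and in the *Hspe1* panel the highest is knockout replicate 1.

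Among the inducible genes, the HSP70 pair varied most. *Hspa1a*, an inducible HSP70 gene on the minus strand of chromosome 17 (34969190 to 34972156, GRCm38), was at 86.2, 15.4 and 48.6 CPM in wild type replicates 1 to 3, the order used throughout. The knockout levels, in replicates 1 to 4, were 6.61, 31.4, 208.9 and 26.7 CPM, from 34, 151, 1118 and 107 reads. Knockout mice thus held both the highest and the lowest value, and the highest was 31.6-fold above the lowest. The genotype means were 50.1 ± 35.4 CPM (SD, n = 3) and 68.4 ± 94.3 CPM (SD, n = 4). The log2 fold change of knockout against wild type was 0.45 (SE 1.27, edgeR adjusted p = 0.999), with a 95% interval from −2.79 to 3.68 that leaves room for a large difference in either direction.

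*Hspa1b*, its neighbour (chromosome 17, 34956436 to 34959238, minus strand), encodes a near-identical HSP70 protein. Its levels were 65.2, 20.2 and 51.5 CPM in wild type mice and 5.25, 22.9, 178.1 and 19.9 CPM in knockout mice. The 2 genes ranked the mice alike but for wild type replicate 2 and knockout replicate 4, which changed places, and knockout replicate 3 stood 2.42-fold above the next mouse for *Hspa1a* and 2.73-fold for *Hspa1b*. Reads on *Hspa1a* per read on *Hspa1b* stayed between 0.764 and 1.37 over the 7 mice. In the last 300 bases of their longest transcripts, where such libraries place their reads, none of the 226 words of 75 bases, the read length, was held by another gene, so reads there can be told apart. Over all mice, the log2 fold change of *Hspa1b* was 0.31 (SE 1.25, edgeR adjusted p = 0.999), with an interval from −2.87 to 3.49.

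The spread of the pair was among the largest of any gene. The SD of log2(CPM + 1) within genotypes was 1.71 for *Hspa1a* and 1.65 for *Hspa1b*, the 4th and 7th largest of 11265 genes, against a median of 0.28 over all genes. The other 8 members lay between 0.19 and 0.43 on that scale. The other genes ranked ahead of *Hspa1b*, named after their values were seen, were *Xist*, *Erdr1*, *Col1a1*, *Col1a2* and the platelet gene *Ppbp*. Set against their constitutive relative, the pair had from 2.66 reads per 100 reads on *Hspa8* in knockout replicate 1 to 57.0 in knockout replicate 3. Wild type replicate 1 was the second highest mouse, with 31.0.

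*Dnajb1*, an inducible HSP40 that delivers clients to HSP70 (chromosome 8, 83608193 to 83612653, plus strand), varied far less. It was at 201.4, 124.3 and 180.9 CPM in wild type mice and 185.0, 180.2, 221.2 and 210.8 CPM in knockout mice. Wild type replicate 2 alone was low, and knockout replicate 3 exceeded knockout replicate 4 by only 1.05-fold. The log2 fold change was 0.24 (SE 0.16, edgeR adjusted p = 0.999), with an interval from −0.096 to 0.57.

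*Hsph1* encodes HSP110, which recharges HSP70 with ATP (chromosome 5, 149614287 to 149636376, minus strand). The 3 wild type mice lay together at 70.4, 70.6 and 70.9 CPM. Knockout mice were at 61.4, 62.1, 137.7 and 65.3 CPM. Knockout replicate 3 was thus 1.94-fold above the next mouse, and the other 3 knockout mice all lay below all wild type mice. The log2 fold change was 0.21 (SE 0.26, edgeR adjusted p = 0.999). With knockout replicate 3 left out it was −0.17 (SE 0.16, edgeR adjusted p = 1.00), and *Hsph1* was then the single member of 10 whose genotypes did not overlap, beside 9.21% of all genes.

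The constitutive chaperones of the cytosol also had knockout replicate 3 as the highest mouse, in a narrower range. *Hspa8*, the HSP70 of unstressed cells (chromosome 9, 40800984 to 40810087, plus strand), was at 488.3, 442.1 and 478.3 CPM in wild type mice and 445.0, 460.5, 679.2 and 497.6 CPM in knockout mice. Knockout replicate 3 was 1.37-fold above knockout replicate 4, and the other 6 mice lay between 442.1 and 497.6 CPM. Of the 75-base words at its transcript end, 69.5% were also held by 7 other annotated genes, 6 of them processed pseudogenes, so its level depends on how shared reads were counted. The log2 fold change was 0.15 (SE 0.15, edgeR adjusted p = 0.999).

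*Hsp90aa1*, the more stress-responsive of the cytosolic HSP90 genes (chromosome 12, 110690605 to 110702728, minus strand), was at 779.2, 852.6 and 716.3 CPM in wild type mice. In knockout mice it was at 590.2, 715.1, 1349 and 860.6 CPM. Knockout replicate 3 was the highest mouse by 1.57-fold and knockout replicate 1 the lowest. *Hsp90ab1*, the constitutive HSP90 (chromosome 17, 45567775 to 45573271, minus strand), had the highest level of the 10 genes in every mouse, with 3520, 3680 and 3005 CPM in wild type mice and 3154, 3131, 5013 and 3652 CPM in knockout mice. It made up between 59.4% and 65.2% of the summed CPM of the 10 genes. *Hsp90ab1* per *Hsp90aa1* was lowest in knockout replicate 3 at 3.71 and highest in knockout replicate 1 at 5.34, with 4.20 to 4.52 in the other 5 mice. The log2 fold changes were 0.17 (SE 0.23) for *Hsp90aa1* and 0.14 (SE 0.16) for *Hsp90ab1*, both at an edgeR adjusted p of 0.999.

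*Dnaja1*, a constitutive HSP40 (chromosome 4, 40722150 to 40737149, plus strand), was at 112.8, 104.7 and 104.4 CPM in wild type mice and 87.3, 102.4, 132.9 and 115.6 CPM in knockout mice. Its log2 fold change, 0.03 (SE 0.15, edgeR adjusted p = 0.999), was the smallest of the 10. The end of its longest annotated transcript lay wholly within *Smu1* on the other strand, and the strand counted is not stated, so reads of the 2 genes may be mixed.

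The mitochondrial pair did not move together. *Hspd1*, the HSP60 chaperonin (chromosome 1, 55077835 to 55088243, minus strand), was at 102.0, 111.2 and 103.6 CPM in wild type mice and 115.0, 112.6, 155.3 and 108.9 CPM in knockout mice. Knockout replicate 3 was again the highest, by 1.35-fold. *Hspe1*, its HSP10 lid (chromosome 1, 55088132 to 55091307, plus strand), was at 295.3, 221.8 and 298.6 CPM in wild type mice and 346.9, 313.0, 246.5 and 265.8 CPM in knockout mice. Here knockout replicate 3 was among the lower mice, and knockout replicate 1 was the highest. *Hspe1* per *Hspd1* was 1.59 in knockout replicate 3 and lay between 1.99 and 3.02 in the other mice. The log2 fold changes were 0.22 (SE 0.15) for *Hspd1* and 0.11 (SE 0.15) for *Hspe1*, both at an edgeR adjusted p of 0.999. Of the *Hspe1* words of 75 bases, 15.9% were held by another annotated gene.

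*Hspe1* varied with the share of reads on *Rn45s*, a gene named after its values were seen. Its CPM fell with the share of reads on *Rn45s* over the 7 mice, with Pearson's r = −0.915 (two-sided exact permutation p = 0.00397, adjusted over the 10 members 0.0397) and Spearman's rho = −0.964 (exact permutation p = 0.00278, adjusted 0.0278). Without wild type replicate 2 and knockout replicate 1, the 2 mice farthest from the median share, r was −0.721 over 5 mice. With *Rn45s* taken out of the counts before scaling r was −0.920, and 0.604% of all genes had an r as low as that of *Hspe1*. Within genotypes r was −0.987 over 3 wild type mice and −0.862 over 4 knockout mice, too few for a test. Over the same 3 wild type mice r was also large for other members, with 0.962 for *Hsp90aa1*, 0.933 for *Hspd1* and −0.916 for *Hspa8*. It was smallest in size for *Dnaja1*, at −0.285. For *Hspd1*, r over the 7 mice was 0.04, and no other member's relation passed after adjustment, the smallest adjusted p being 0.931 by Pearson's r and 0.119 by Spearman's rho. These p-values were not adjusted over all genes, and the cause of the relation was not tested.

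**Figure D2:**
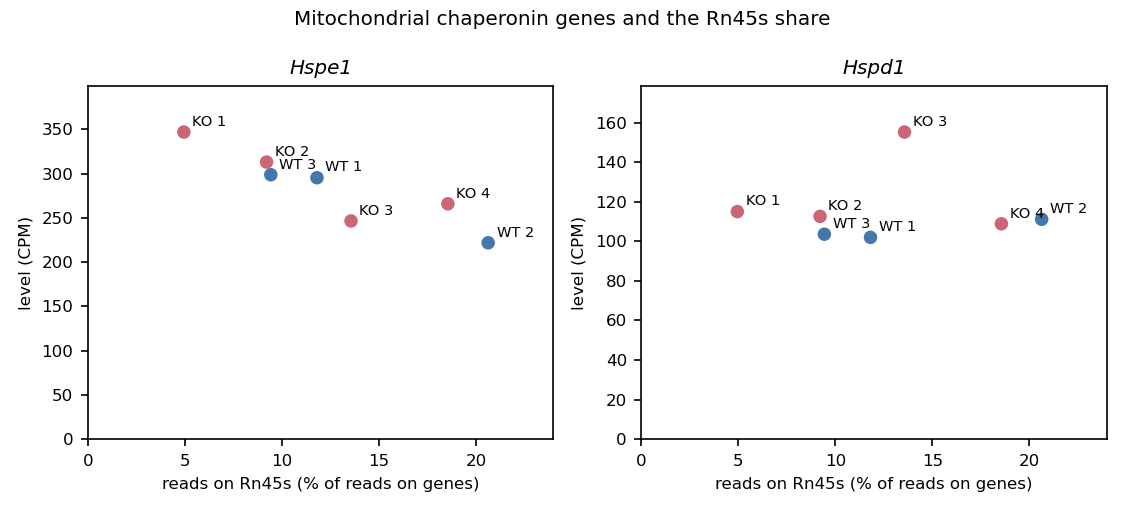
CPM of *Hspe1* (left) and *Hspd1* (right) against the share of reads on genes that fell on *Rn45s*, in percent, with 1 labelled point per mouse, wild type in blue and knockout in red. *Hspe1* runs from 346.9 CPM at 4.94% to 221.8 CPM at 20.6%, whereas *Hspd1* stays between 102.0 and 115.0 CPM except for knockout replicate 3 at 155.3 CPM.

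Because 1 mouse led so many members, the comparison was repeated without it. With all mice, all 10 log2 fold changes were above 0, with a median of 0.19, beside 49.8% of all genes and a median of −0.0014. Without knockout replicate 3, 3 members lay above 0 and 7 below, with a median of −0.058, beside 49.4% of all genes above 0. Leaving out the highest mouse had to lower the knockout mean of the 9 members it led, so this fall is no test. *Hspa1a* turned to −1.24 (SE 0.87) and *Hspa1b* to −1.53 (SE 0.66, unadjusted p = 0.0660), both at an edgeR adjusted p of 1.00. The summed level of *Hspa1a* and *Hspa1b* was then 11.9, 54.2 and 46.6 CPM in the remaining knockout mice, with wild type mice at 151.4, 35.6 and 100.2 CPM, so the genotypes still overlapped. Summed over the 10 genes, wild type mice stood at 5474 ± 362 CPM (SD, n = 3) and knockout mice at 6068 ± 1546 CPM (SD, n = 4), a difference of 594 CPM. It was smaller than the SD among knockout mice, and without knockout replicate 3 it was −158.8 CPM.

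**Figure D3:**
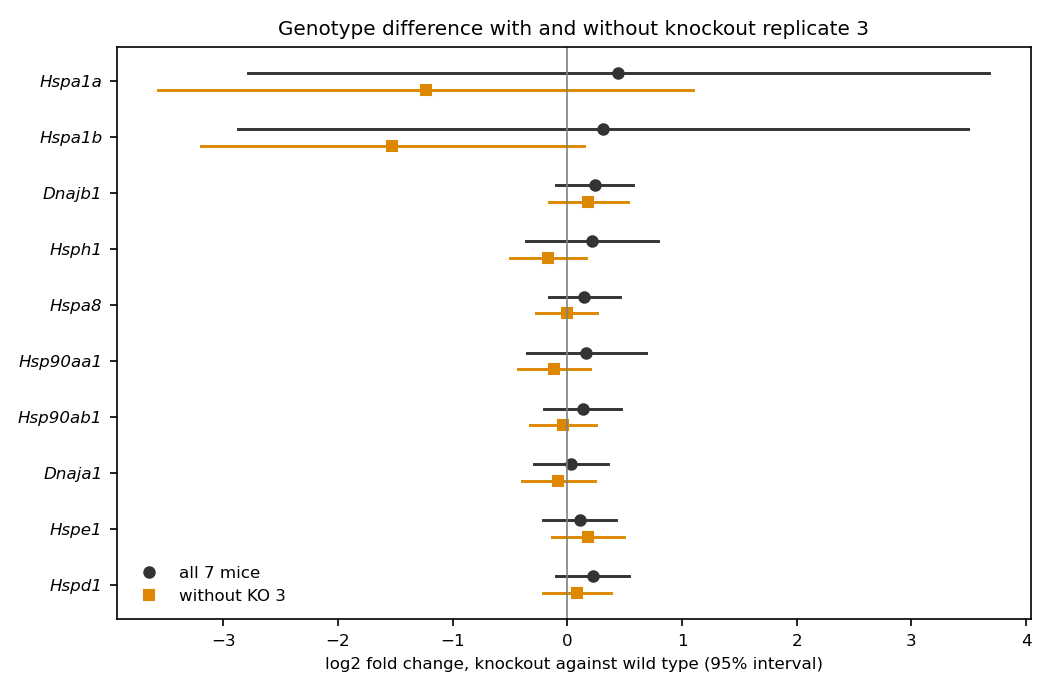
Log2 fold change of knockout against wild type (horizontal axis) with its 95% interval from edgeR, over all 7 mice (dark circles) and without knockout replicate 3 (orange squares). The 10 circles lie above 0 and 7 of the 10 squares below it, and the intervals of all 20 estimates include 0.

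The other genes of the heat shock and stress pathways were counted in 9 lists that hold no member. Of their 134 genes 127 were tested, and edgeR called 0 of them at an adjusted p under 0.25, with 7 at an unadjusted p under 0.05, a threshold that 3.63% of all genes passed. The 7 became 18 without wild type replicate 1, 4 without wild type replicate 3 and 13 with no filter on low counts. In all, 85 were higher and 42 lower in knockout mice, with a median log2 fold change of 0.07, again beside 49.8% higher and a median of −0.0014 for all genes.

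None of the 3 tested genes of the heat shock factor list passed. *Hsf1*, the main activator of the response, was at 23.3, 14.6 and 20.2 CPM in wild type mice and 21.4, 19.1, 12.5 and 16.2 CPM in knockout mice. Its lowest level was that of knockout replicate 3, the mouse with the highest *Hspa1a*. The log2 fold change was −0.17 for *Hsf1*, −0.14 for *Hsf2* and 0.0039 for the factor-binding gene *Hsbp1*. Of 13 tested other heat-inducible genes, 11 were higher and 2 lower in knockout mice, with a median of 0.13, and knockout replicate 3 was the highest mouse for 4 of them. Without knockout replicate 3, 9 were higher and 4 lower with a median of 0.09, and without wild type replicate 3, 10 were higher and 4 lower with a median of 0.21 and 0 at an unadjusted p under 0.05 in edgeR. The 4 genes that knockout replicate 3 led were *Dedd2* at 47.3 CPM, *Hspa4l* at 19.8 CPM, the HSP70 co-chaperone *Bag3* at 28.6 CPM and the HSP90 co-chaperone *Chordc1* at 183.5 CPM. *Ier5*, which assists heat shock factor 1, had the smallest p of the list. It was at 553.7, 482.7 and 392.4 CPM in wild type mice and 605.0, 585.6, 582.8 and 702.1 CPM in knockout mice, with no overlap and a log2 fold change of 0.38 (SE 0.14, unadjusted p = 0.0148, edgeR adjusted p = 0.999). *Hspa13*, an HSP70 relative, stood at −0.36 (SE 0.20, edgeR adjusted p = 0.999).

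Partner genes of the chaperones split in both directions. Of 28 genes listed here as HSP70 and HSP90 co-chaperones, 19 were higher and 9 lower, with a median of 0.09, and knockout replicate 3 was the highest mouse for 8. Without wild type replicate 2, 15 were higher and 13 lower with a median of 0.03, and the median was 0.05 without knockout replicate 2 and 0.06 without knockout replicate 3. The smallest p values were those of *Pdcl3* (log2 fold change −0.49, SE 0.23), the HSP90-bound isomerase *Ppid* (0.23) and the HSP90 activator *Ahsa1* (0.28). Subunits of the CCT chaperonin and of prefoldin, which fold actin and tubulin, were higher for 8 and lower for 6, with *Pfdn6* at −0.23, *Pfdn1* at 0.21 and *Pfdn5* at −0.18. Other mitochondrial chaperones and proteases were higher for 6 and lower for 6, with the iron-sulphur co-chaperone *Hscb* at −0.72 (SE 0.29), *Dnaja3* at −0.38 and *Grpel1* at 0.23. Genes of the endoplasmic reticulum response were higher for 11 and lower for 11, with *Manf* at −0.26, *Xbp1* at −0.23 and *Atf4* at 0.19. The cold-inducible genes *Rbm3* and *Cirbp* stood at −0.096 and 0.02. Oxidative stress genes were higher for 6 and lower for 5, with the heme oxygenase gene *Hmox1* at −0.52, *Gclm* at −0.25 and *Mt1* at 0.25. With 1 mouse left out, the number higher ran from 5 to 9 for CCT and prefoldin, 5 to 7 for the mitochondrial list, 7 to 14 for the endoplasmic reticulum list and 3 to 6 for oxidative stress. None of the genes in these lists passed, all at an edgeR adjusted p over 0.25.

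Immediate-early genes, which cells induce within minutes of being disturbed, ordered the mice in another way. All 22 had a log2 fold change above 0, with a median of 0.46, but edgeR called 0 of them at an adjusted p under 0.25, and 3 had an unadjusted p under 0.05, beside 3.63% of all genes. Their summed level was 9070, 6463 and 4174 CPM in wild type mice and 7057, 8238, 8331 and 13280 CPM in knockout mice. The genotypes overlapped, and the highest mouse was knockout replicate 4, which led 14 of the 22 genes, whereas knockout replicate 3 led 4. Without knockout replicate 4, 21 of 22 were above 0 with a median of 0.28, and without wild type replicate 3, the lowest mouse, 20 were above 0 with a median of 0.24. Without wild type replicate 1, 14 of the 22 had an unadjusted p under 0.05, beside 3.81% of all genes in the same fit, and 0 were called by edgeR; without wild type replicate 2 it was 1 of 22. *Cebpd*, which encodes a C/EBP transcription factor, had the smallest p. It was between 51.5 and 59.5 CPM in wild type mice and at 68.6, 90.2, 99.97 and 77.7 CPM in knockout mice, with no overlap, and its log2 fold change was 0.61 (SE 0.16, edgeR adjusted p = 0.811). *Klf4* followed with 0.70 (SE 0.23) and *Ier3* with 0.49 (SE 0.19), both at an edgeR adjusted p of 0.999. Knockout replicate 4 was also the mouse with the most *Col1a1*, at 518.5 CPM against at most 34.9 CPM elsewhere, and *Pf4*, a platelet gene, at 572.3 CPM against at most 190.2 CPM. Whether these levels bear on the immediate-early genes was not tested.

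Among markers of other cell types, the sum of those of neutrophils was highest in the mouse that led most of the chaperones. The 12 neutrophil genes summed to 17898, 16450 and 18717 CPM in wild type mice and 22356, 18546, 33749 and 20674 CPM in knockout mice. Knockout replicate 3 was thus the highest in this sum as well, and it led 8 of the 12 genes. The list was split, since *Elane*, *Mpo* and *Ctsg* were highest in wild type replicate 1 and *Prtn3* in knockout replicate 2. With all mice, 10 of the 12 were above 0 with a median log2 fold change of 0.46, and without knockout replicate 3, 7 were above 0 with a median of 0.14. The 10 macrophage genes were all lower in knockout mice, 7 of them at an unadjusted p under 0.05, beside 3.63% of all genes, and 0 called by edgeR, and their sum ran from 423.8 to 473.8 CPM in wild type and from 300.1 to 348.5 CPM in knockout mice. Without wild type replicate 2 or 3, 4 of them had an unadjusted p under 0.05, and 9 of 10 were lower without wild type replicate 3, knockout replicate 1 or knockout replicate 3. The 8 tested eosinophil, basophil and mast cell genes were also all lower, 4 at an unadjusted p under 0.05, beside 3.63% of all genes, and 0 called by edgeR (3 to 6 at that p with 1 mouse left out), with sums from 4219 to 4660 CPM and from 2881 to 3920 CPM. Summed stem and progenitor genes ran from 846 to 974 CPM in wild type and from 712 to 925 CPM in knockout mice, and lymphoid genes from 290 to 390 CPM and from 198 to 399 CPM. Of 11 tested lymphoid genes, 2 had an unadjusted p under 0.05 in edgeR, 1 higher and 1 lower, beside 3.63% of all genes. They were *Cd8a* at 0.59 (SE 0.25) and *Dntt* at −0.74 (SE 0.17, edgeR adjusted p = 0.544), and edgeR called 0. Cycling genes lay between 2597 and 2843 CPM in all mice. Erythroid genes summed to between 46.3 and 246.2 CPM, with *Hba-a1*, *Hba-a2*, *Hbb-bs* and *Hbb-bt* listed at 0 in every mouse. The part of the cell make-up in the chaperone levels was not tested. Nor was that of sex, which by *Xist* and *Ddx3y* sets knockout replicate 3 apart and cannot be separated from the other traits of that mouse.

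**Figure D4:**
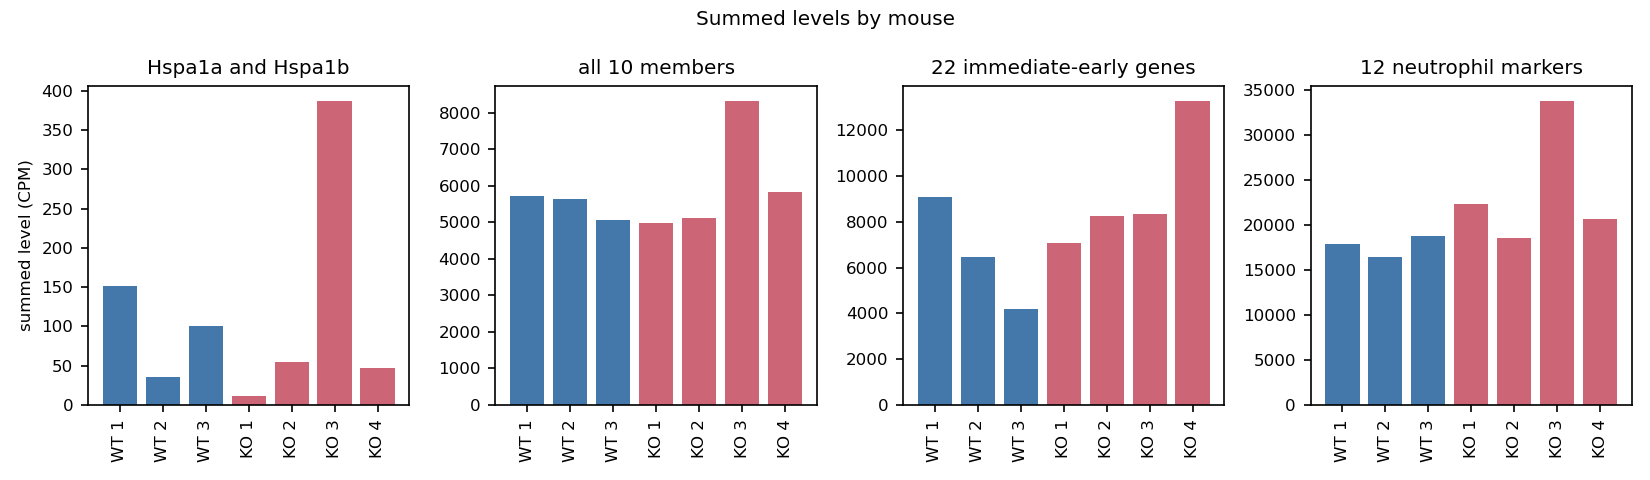
Summed CPM (vertical axes, from 0) of *Hspa1a* and *Hspa1b*, all 10 genes, 22 immediate-early genes and 12 neutrophil markers in each mouse, wild type in blue and knockout in red. Knockout replicate 3 has the tallest bar in every panel but that of the immediate-early genes, where knockout replicate 4 stands at 13280 CPM.

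To find genes with the pattern of the inducible members, each gene's log2(CPM + 1) was turned into z-scores over the 7 mice and compared with the mean z-score of *Hspa1a*, *Hspa1b*, *Dnajb1* and *Hsph1*. That mean was 0.44, −0.85 and 0.12 in wild type mice and −0.91, −0.29, 1.59 and −0.10 in knockout mice. By root mean square difference, the nearest of all tested genes other than these 4 were *2310033P09Rik* (0.314), *BC065397* (0.325), *Hspa8* (0.339), *Kdm2b* (0.341), *Tnfaip8l2* (0.349), *Tinagl1* (0.357), *Nxn* (0.362) and *Mycbp2* (0.371). Of the 6 members outside the mean, *Hspa8* was the nearest and *Hspe1* the farthest, at 1.36. The 4 genes that make up the mean lay at 0.269 (*Hspa1a*), 0.350 (*Hspa1b*), 0.476 (*Hsph1*) and 0.708 (*Dnajb1*). With 7 points per gene, this ranking is a description of these mice.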

How the data were processed

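Poly(A)-primed 3′ RNA-seq libraries of lin- bone marrow cells of 3 *HRP-2* wild type and 4 knockout mice were analysed. As the study's methods state, STAR aligned the 75 bp reads to GRCm38 and gave the gene quantities on Ensembl annotation; the submitters' processing notes also name FastQC and DESeq2. The values the authors deposited are whole read counts per gene symbol, not normalized. The files end in tally rows of a kind that other counting programs write, so how the counts were made is not certain. These 5 rows of a file, which tally reads given to no gene and hold 29.4% to 33.6% of its reads, were left out. The strand that was counted is not given in the sources used here.

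Counts were scaled by TMM, turned into CPM, filtered with filterByExpr (minimum count 10) and tested with the robust quasi-likelihood test of edgeR 4.0.16 (R 4.3.3), with Benjamini-Hochberg adjustment over all 11265 genes, the genotype being the only term. Standard errors of log2 fold changes are their size over the square root of F. Limits were adjusted p-values under 0.25 and 0.05. The common dispersion gave a biological coefficient of variation of 21.3%. All pairs of replicates of a genotype differed by more than sampling noise. The replicates are separate mice by their labels.

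Named genes are the 10 members, *Hdgfl2*, the 3 genes with the smallest p of each pathway list and any called, and the 8 genes nearest to the inducible members, these left out; 1 gene that the rule names is not reported here. *Kit*, *Cd34*, the erythroid genes, *Xist*, *Ddx3y*, *Rn45s*, genes of larger spread and the genes led by knockout replicate 3 were named after their values were seen. So were the single neutrophil and lymphoid genes. The members and lists were chosen with earlier results of these data known. Relations to *Rn45s* used exact tests over 5040 permutations. Alternatives were DESeq2 1.42.0, limma-voom (limma 3.58.1), other scaling and filters, the replicate number as a block, and the omission of each mouse, and, chosen after seeing the data, the sum of *Hspa1a* and *Hspa1b* and list counts without each mouse. Gene coordinates and transcripts are those of GENCODE M21 on GRCm38, and promoter windows those of RefSeq on GRCm38.p6.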

Additional observations from a re-analysis of the deposited data

Results flagged for a closer look

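In 4 of the 10 members and 2 of their sums, knockout replicate 3 lay farther from the other 3 knockout mice than Dixon's test allows at the 95% level. It stood at 208.9 CPM for *Hspa1a*, 178.1 CPM for *Hspa1b*, 137.7 CPM for *Hsph1* and 155.3 CPM for *Hspd1*. The summed level was 745.9 CPM for the 4 inducible members and 387.0 CPM for *Hspa1a* and *Hspa1b* alone. The same mouse stood apart with 104.5 CPM of *Ddx3y*. Of 20 values tested in this way 7 were past that limit, where chance alone passes about 1 in 20, which is 1 here. The values are not independent, since the genes share mice and the sums share genes, and *Ddx3y* is Y-linked. Setting 7 against 1 is thus a description and not a test. The wild type group, with 3 mice, was left out of this test.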

How the results depend on the processing

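No member was called in any of the 17 other settings, the smallest edgeR, DESeq2 or limma adjusted p being 0.949. The number of genes called, 2 as reported, was 21 with DESeq2, 41 with no filter on low counts, 1 with at least 10 reads in every mouse (where *Hdgfl2* was not tested) and 2 to 7 without 1 mouse, 7 being without wild type replicate 1. With no filter, 2 genes of the other pathway lists were called, *Cebpd* and *Klf4*. The number of members above 0 ran from 3, without knockout replicate 3, to 10, and the summed difference of 594 CPM ran from −158.8 to 949.8 CPM. Of 160 recomputed member fold changes, 13 had the other sign: with limma-voom, *Hspa1a* was −0.32 and *Hspa1b* −0.67, and the cause was not tested. Without 1 mouse, log2 fold changes ran from −1.24 to 1.11 for *Hspa1a*, −1.53 to 0.70 for *Hspa1b*, −0.17 to 0.33 for *Hsph1*, −0.0062 to 0.22 for *Hspa8*, −0.12 to 0.32 for *Hsp90aa1*, −0.039 to 0.21 for *Hsp90ab1*, −0.078 to 0.13 for *Dnaja1*, 0.088 to 0.27 for *Hspd1*, 0.060 to 0.39 for *Dnajb1* and −0.018 to 0.18 for *Hspe1*. The low end came without knockout replicate 3, except for *Dnajb1* and *Hspe1*, where it came without wild type replicate 2. *Hspa1b* without wild type replicate 2 was −0.035. The high end of *Dnajb1* came without wild type replicate 1 (unadjusted p = 0.0449, edgeR adjusted p = 1.00). With reads on *Hspa1a* and *Hspa1b* added together, a setting chosen after seeing the data, the log2 fold change was 0.38 (SE 1.27).

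Same-numbered mice did not deviate together (correlations −0.0249, −0.215 and −0.16), so the numbers do not pair them. With the replicate block, 1 gene and 0 members were called, 3 genes of the other pathway lists had an unadjusted p under 0.05, and 8 members lay above 0, with *Hspa1b* at −0.27 and *Dnaja1* at −0.018.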
